A study of Mus musculus with 86 samples.

Results

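The loci of 9 regulators and markers of the neural lineage were followed in the SOX2 and CTCF peak lists of mouse embryonic stem cells. The genes were Sox1, Sox11, Sox21, Pax6, Pax3, Nes, Neurog1, Otx2 and Pou3f2, and every peak within 50 kb of a gene body (mm10) was taken. They are 9 of 21887 protein-coding genes in the RefSeq table of GRCm38.p6. The asynchronous SOX2 lists held 123 and 92 such peaks in replicates 1 and 2, of 90266 and 63504 in all, and the mitotic SOX2 lists 5 and 0, of 1976 and 408. The asynchronous CTCF lists held 62 and 61 such peaks, of 68328 and 67995, and the mitotic CTCF lists 16 and 12, of 20142 and 15338.

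The cells were mouse embryonic stem cells of strain 129S5/SvEvBrd, grown in serum with leukemia inhibitory factor, and no altered allele is named in the labels. The asynchronous group was untreated and cycling. For the mitotic group, cells were held with 100 ng/ml nocodazole, a drug that blocks the spindle, for 6 h and the rounded cells were shaken off the dish. Chromatin immunoprecipitation followed by sequencing (ChIP-seq) was done with an antibody to SOX2 or to CTCF, with 2 libraries per factor and condition. Of the 86 libraries of the series, 26 input and 52 histone mark libraries were not analysed here. Whether replicates were separate cultures is not in the labels, and p-values measure only the spread between these libraries, which may be technical. The peak lists hold no expression values, so the cell type could not be checked against marker genes.

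SOX2 is an HMG-box factor of the pluripotency network that also marks neural progenitors, where its relatives SOX1, SOX11 and SOX21 and the partner factors PAX6 and POU3F2 act on many of the same enhancers. PAX3 is a paired-box factor of the dorsal neural tube and neural crest, NEUROG1 a proneural basic helix-loop-helix factor, OTX2 a homeobox factor of the anterior embryo and of primed pluripotency, and Nes encodes nestin, the intermediate filament of neural progenitors. A neural enhancer bound by SOX and POU factors is known within the Nes gene. CTCF is a zinc finger protein at chromatin loop anchors and insulators, and most transcription factors bind less to condensed mitotic chromosomes. The comparison asks how much of the binding around these genes was still called in mitosis.

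The starts of 4 of the genes are shown first, and peaks of SOX2, CTCF or both lay over them in asynchronous cells. Such peaks also lay over starts of Nes, Pax6, Otx2 and Sox21, which are not shown. RefSeq promoter entries (GRCm38.p6) matched 8 of the 9 genes, all but Pax3, with 12 entries in all since Pax6 and Otx2 have several starts. Each line gives the 250 bases before the start, 5′ to 3′ on the gene's strand. Capitals mark matches on either strand to CATTGTT (a SOX motif), ATGCAAA, and AGGGGGC or AGGTGGC (cores of the CTCF motif). ATGCAAA is 7 bases of the octamer bound by POU factors and is called the octamer here.
Neurog1 (chr13:56252181-56252430, minus strand): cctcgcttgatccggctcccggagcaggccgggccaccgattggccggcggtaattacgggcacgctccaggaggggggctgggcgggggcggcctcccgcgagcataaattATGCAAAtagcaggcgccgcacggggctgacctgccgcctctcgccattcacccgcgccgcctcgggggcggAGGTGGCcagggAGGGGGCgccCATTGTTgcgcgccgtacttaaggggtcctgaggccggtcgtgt
Sox11 (chr12:27342719-27342968, minus strand): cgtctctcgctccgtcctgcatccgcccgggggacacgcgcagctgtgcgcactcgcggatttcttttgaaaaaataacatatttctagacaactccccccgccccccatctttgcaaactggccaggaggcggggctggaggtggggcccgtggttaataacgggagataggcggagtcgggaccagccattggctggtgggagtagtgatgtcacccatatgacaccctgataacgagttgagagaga
Sox1 (chr8:12395269-12395518, plus strand): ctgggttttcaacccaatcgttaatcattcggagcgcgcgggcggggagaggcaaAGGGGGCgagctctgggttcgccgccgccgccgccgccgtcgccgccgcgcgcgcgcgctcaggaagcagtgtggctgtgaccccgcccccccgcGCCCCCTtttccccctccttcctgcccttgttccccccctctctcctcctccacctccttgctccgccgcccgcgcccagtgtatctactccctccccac
Pou3f2 (chr4:22488367-22488616, minus strand): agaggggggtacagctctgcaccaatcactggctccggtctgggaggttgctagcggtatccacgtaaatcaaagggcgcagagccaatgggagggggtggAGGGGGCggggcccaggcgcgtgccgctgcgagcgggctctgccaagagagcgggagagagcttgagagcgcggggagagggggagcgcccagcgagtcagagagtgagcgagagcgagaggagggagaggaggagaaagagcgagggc
Sox1 also held an octamer just after its start, within these 30 bases (chr8:12395525-12395554).
Sox1 after the start: cgccagcgcgccATGCAAAtcaccgccgcc
The searches ran over the whole 300-base promoter entries, which reach 50 bases past the start. The SOX motif was in 3.78% of all 32851 promoter entries, the octamer in 4.63%, AGGGGGC in 10.6%, AGGTGGC in 6.15% and either CTCF core in 16.0%. The Neurog1 promoter held all of these motifs, and 9 of all promoter entries (0.0274%) held a SOX motif, an octamer and a CTCF core together. A match is a string of letters and was not tested as a binding site. The promoter entries of Sox11, Nes, Pax6, Otx2 and Sox21 held none of the motifs.

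Most of these peaks were missing from the mitotic lists, and far more so for SOX2 than for CTCF. SOX2 peaks near the 9 genes numbered 107.5 ± 21.9 in the asynchronous libraries and 2.50 ± 3.54 in the mitotic libraries (mean ± SD, n = 2 each). This was 43.0-fold fewer, beside 64.5-fold fewer over the whole lists. CTCF peaks numbered 61.5 ± 0.707 in asynchronous and 14.0 ± 2.83 in mitotic libraries (n = 2 each), 4.39-fold fewer beside 3.84-fold fewer over the whole lists. For both factors the mitotic libraries lay below the asynchronous ones without overlap, and the two-sided exact permutation test gave p = 0.333, the smallest that 2 against 2 libraries allow. These are bulk cells, so fewer bound cells and less binding per cell cannot be told apart.

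**Figure D1:**
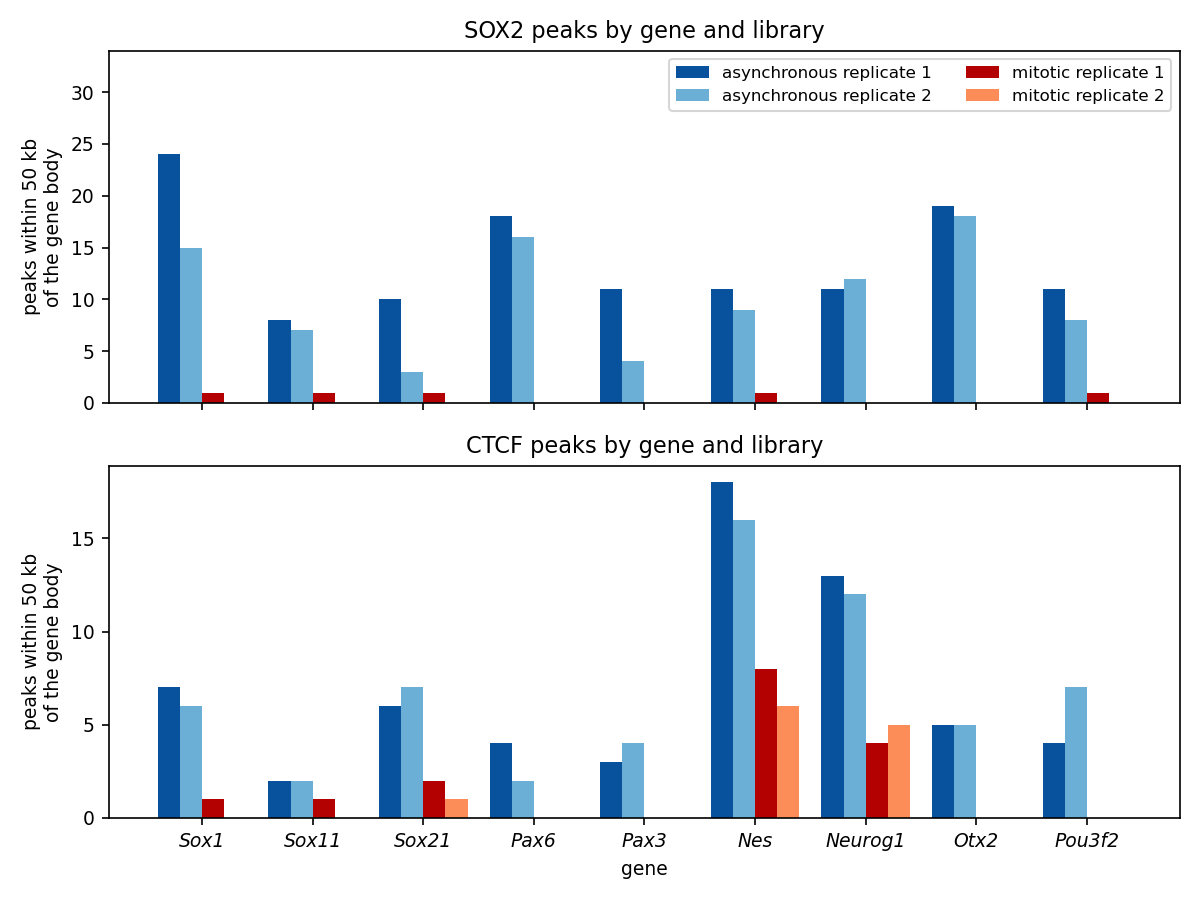
Number of SOX2 (upper panel) and CTCF (lower panel) peaks within 50 kb of each gene body, 1 bar per library; blue bars are the asynchronous replicates 1 and 2, red and orange bars the mitotic replicates 1 and 2. Sox1 has 24 and 15 asynchronous SOX2 peaks against 1 and 0 in mitosis, and Nes keeps the most mitotic CTCF peaks, 8 and 6.

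The reads covering a summit and the local background were solved from the deposited fold, taken as (reads + 1) over (background + 1), and the deposited p-value, taken as a Poisson p. Whole reads came out, within 0.01 reads, for 99.9 to 100% of the peaks solved in each library. The background coverage solved from the lists, in reads per 100 bp of the shortest peak, was 2.48 and 1.61 for asynchronous SOX2 replicates 1 and 2 and 2.62 and 1.64 for the mitotic ones. For CTCF it was 3.36 and 3.71 in asynchronous libraries and 3.62 and 3.77 in mitotic ones. By this measure each mitotic library was close to the asynchronous library of its number. SOX2 replicate 2 had the lower background and the fewer peaks in both conditions.

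The genes differed in how many peaks they carried. In asynchronous replicates 1 and 2, SOX2 peaks numbered 24 and 15 at Sox1, 19 and 18 at Otx2, 18 and 16 at Pax6, and 11 and 12 at Neurog1. They numbered 11 and 9 at Nes, 11 and 8 at Pou3f2, 11 and 4 at Pax3, 10 and 3 at Sox21, and 8 and 7 at Sox11. The replicates gave nearly the same number at Otx2, Pax6, Neurog1 and Sox11, while Sox21 and Pax3 had few peaks in the shallower replicate. CTCF gave another order, with 18 and 16 peaks at Nes, 13 and 12 at Neurog1, 7 and 6 at Sox1, and 6 and 7 at Sox21. The remaining genes had 4 and 7 (Pou3f2), 5 and 5 (Otx2), 4 and 2 (Pax6), 3 and 4 (Pax3) and 2 and 2 (Sox11).

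Regions were kept where overlapping peaks of both asynchronous libraries merged, which left 62 SOX2 and 48 CTCF regions near the genes. Otx2 had 12 SOX2 regions, Pax6 10, Sox1 and Neurog1 8 each, Nes 7, Pou3f2 6, Sox11 5, Pax3 4 and Sox21 2. The median of 7 stood beside a median of 4 over all protein-coding genes, and 12 regions put Otx2 at the 94.3rd percentile of those genes. For CTCF the median of the 9 genes was 4 beside 6 over all, with Nes at 15 regions (95.3rd percentile), Neurog1 at 11, Sox21 at 6, and Pax3 at 1. These counts depend on gene length and on neighbours: the window of Nes holds 6 other protein-coding genes (Mrpl24, Rrnad1, Isg20l2, Crabp2, Bcan and Hapln2), and Nes was the nearest protein-coding gene to 1 of its 15 CTCF regions. Over the 9 genes a member was the nearest protein-coding gene to 54 of the 62 SOX2 regions and to 29 of the 48 CTCF regions. SOX2 regions lay within the gene in 23 cases, upstream in 20 and downstream in 19, while CTCF regions lay within the gene in 9, upstream in 18 and downstream in 21. The files give no exons, so exonic and intronic positions were not told apart.

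**Figure D2:**
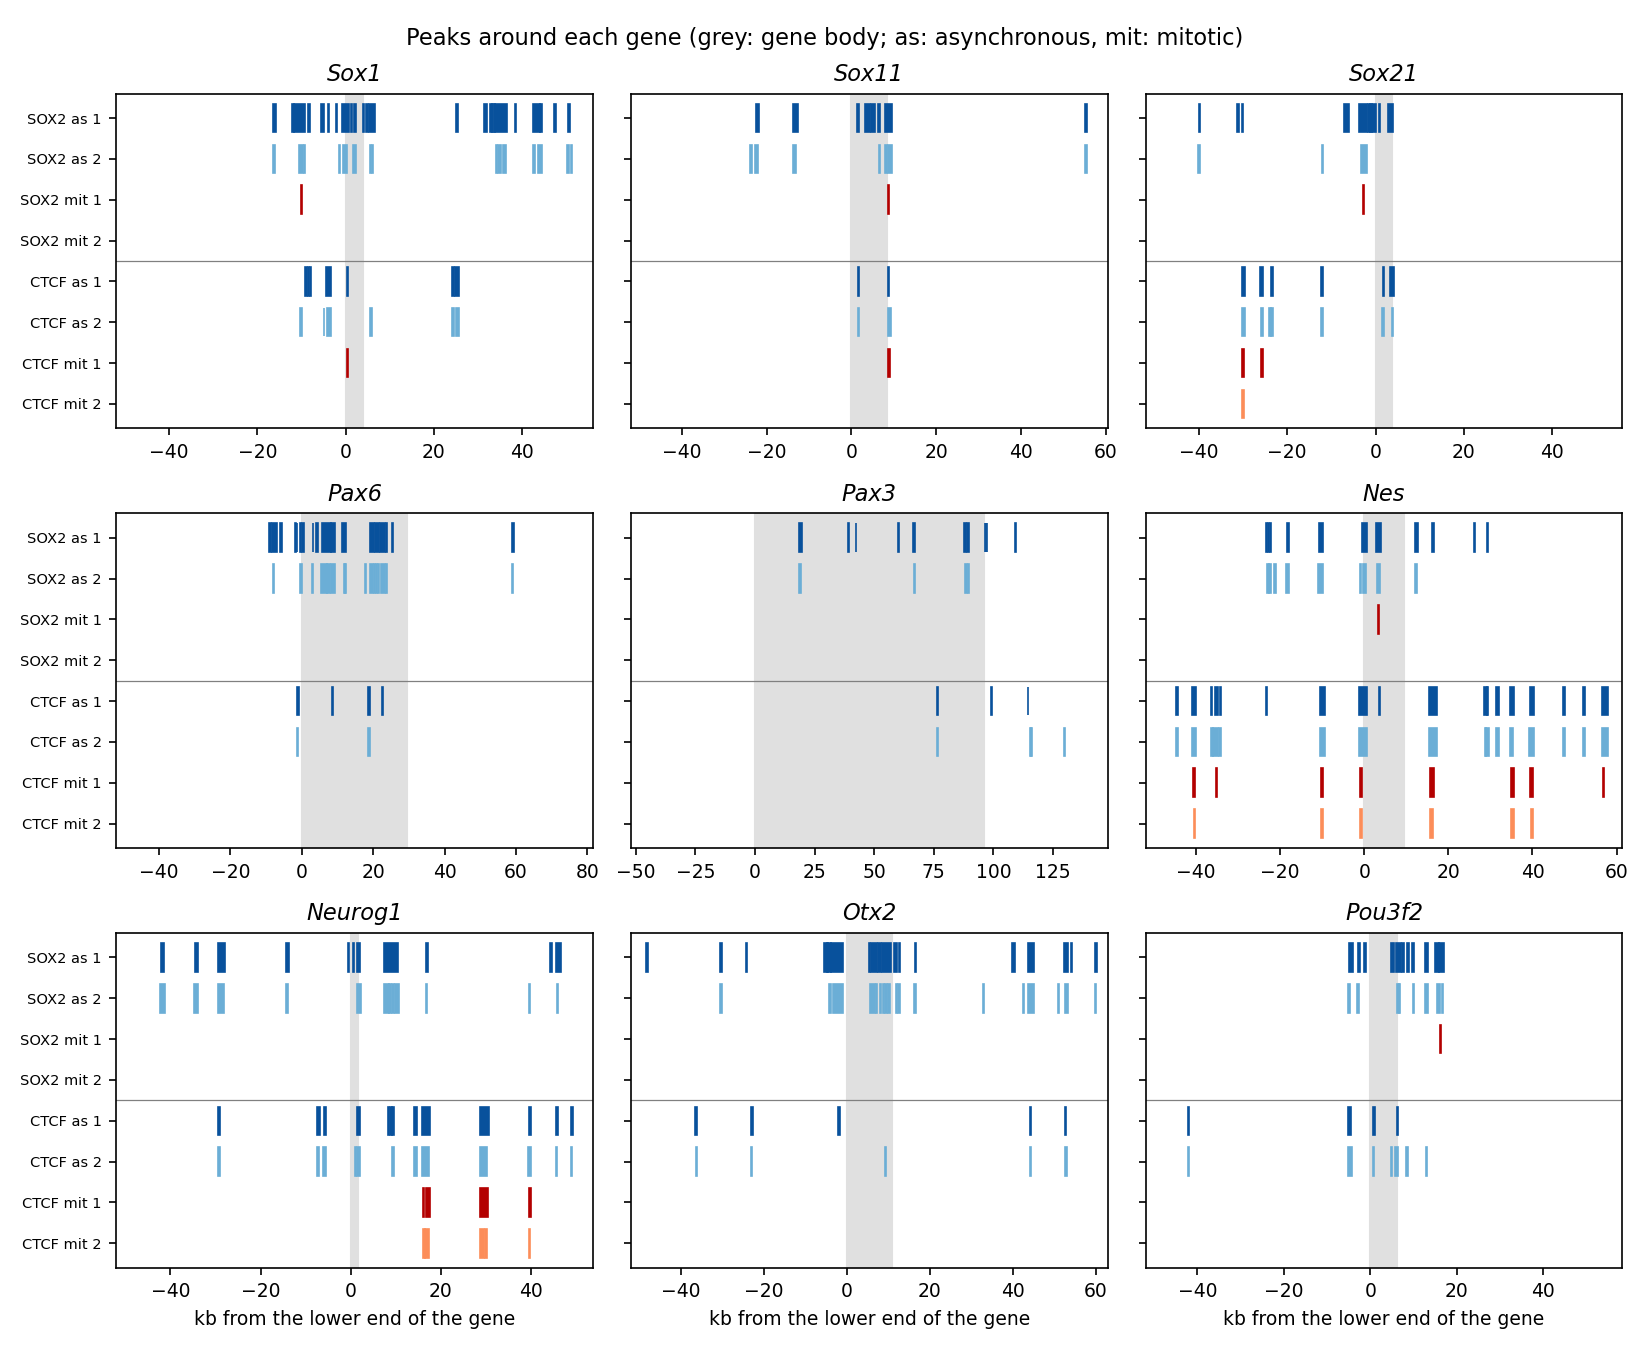
Peaks around each gene in the 8 lists, drawn to scale as kb from the lower end of the gene body (grey band), with 4 SOX2 rows above and 4 CTCF rows below. The mitotic rows (red, orange) of SOX2 hold at most 1 peak per gene, and those of CTCF hold peaks mainly at Nes and Neurog1.

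Strength ranks a region by its deposited fold enrichment, as the percentile among all regions of the factor found in both asynchronous libraries, averaged over both. By this measure the SOX2 regions near the 9 genes had a median of 49.3, beside 47.7 over all SOX2 regions, and 10 of the 62 (16.1%) were in the strongest of 10 equal classes of all regions. The CTCF regions had a median of 36.3, beside 50.7 over all. The SOX2 regions were thus of ordinary strength with a strong upper end, and the CTCF regions leaned to the weak side.

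SOX2 regions were rarely called in mitosis, and those that were came from 1 library. In mitotic replicate 1, 5 of the 62 regions (8.06%, Wilson 95% interval 3.49 to 17.5%) shared at least 1 bp with a peak, beside 3.37% of all 51672 SOX2 regions and 3.69% of all regions at the same strength. In mitotic replicate 2, 0 of 62 were called, which allows a share of up to 4.84%, beside 0.755% of all regions. No region was called in both, beside 0.675% of all, so each of the 5 was called in 1 library only, beside 2.77% of all, and 57 (91.9%) were called in neither, beside 96.6% of all. Without mitotic replicate 1 no SOX2 call remained near these genes. Each of the 5 regions belonged to a different gene: Nes, Sox21, Sox1, Sox11 and Pou3f2. Their mitotic peaks had a deposited −log10 q of 2.26 to 4.92, and none was left when a −log10 q of at least 5 was required.

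The SOX2 region within Nes (chr3:87973907-87975077) was the strongest of the 62, at a strength of 98.9. Its summit lay 3.42 kb after the start, with summits of the asynchronous libraries 2 bp apart. The deposited fold was 27.2 and 29.9 in asynchronous replicates 1 and 2, and 3.87 in mitotic replicate 1. At the summit 268 and 188 reads were stacked in the asynchronous libraries, and 24 in mitotic replicate 1 over a local background of 5.47. The mitotic summit was 39 and 37 bp from the asynchronous ones. The region lies in the gene that holds the known neural enhancer, but whether it is that enhancer was not tested.

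The region 1.95 kb downstream of Sox21 (chr14:118229533-118231288), a SOX factor that counteracts SOX1 to SOX3 in neurogenesis, had a strength of 96.5. Summit coverage was 240 and 102 reads in the asynchronous libraries and 23 in mitotic replicate 1, with deposited folds of 19.6, 21.0 and 3.71. As at Nes, the mitotic peak was small beside the asynchronous ones. Its summit was 173 and 168 bp from theirs, and whether it marks the same site was not tested.

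The other 3 called SOX2 regions were of middle strength and gave a different picture. At Sox11 the region over the start (chr12:27342235-27343868, strength 49.4) had 38 and 32 summit reads in asynchronous and 26 in mitotic replicate 1. The mitotic peak itself (chr12:27342903-27343202) lay upstream of the start. Upstream of Sox1 by 9.24 kb (chr8:12383862-12386281, strength 55.6) the values were 44 and 27 against 25. Upstream of Pou3f2 by 8.76 kb (chr4:22497129-22499078, strength 49.2) they were 37 and 20 against 20, with a mitotic summit 484 and 565 bp from the asynchronous ones. Across the 5 regions mitotic coverage stayed within 20 to 26 reads while asynchronous coverage ran from 20 to 268. The lowest summit coverage in the mitotic replicate 1 list was 18 reads. By deposited fold the mitotic peaks of Nes and Sox21 were at the 48.8th and 42.3rd percentile of that list, and those of Sox1, Pou3f2 and Sox11 at the 20.5th, 16.4th and 2.94th. Of the 5, the Nes region alone kept a summit within 100 bp of an asynchronous summit.

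**Figure D3:**
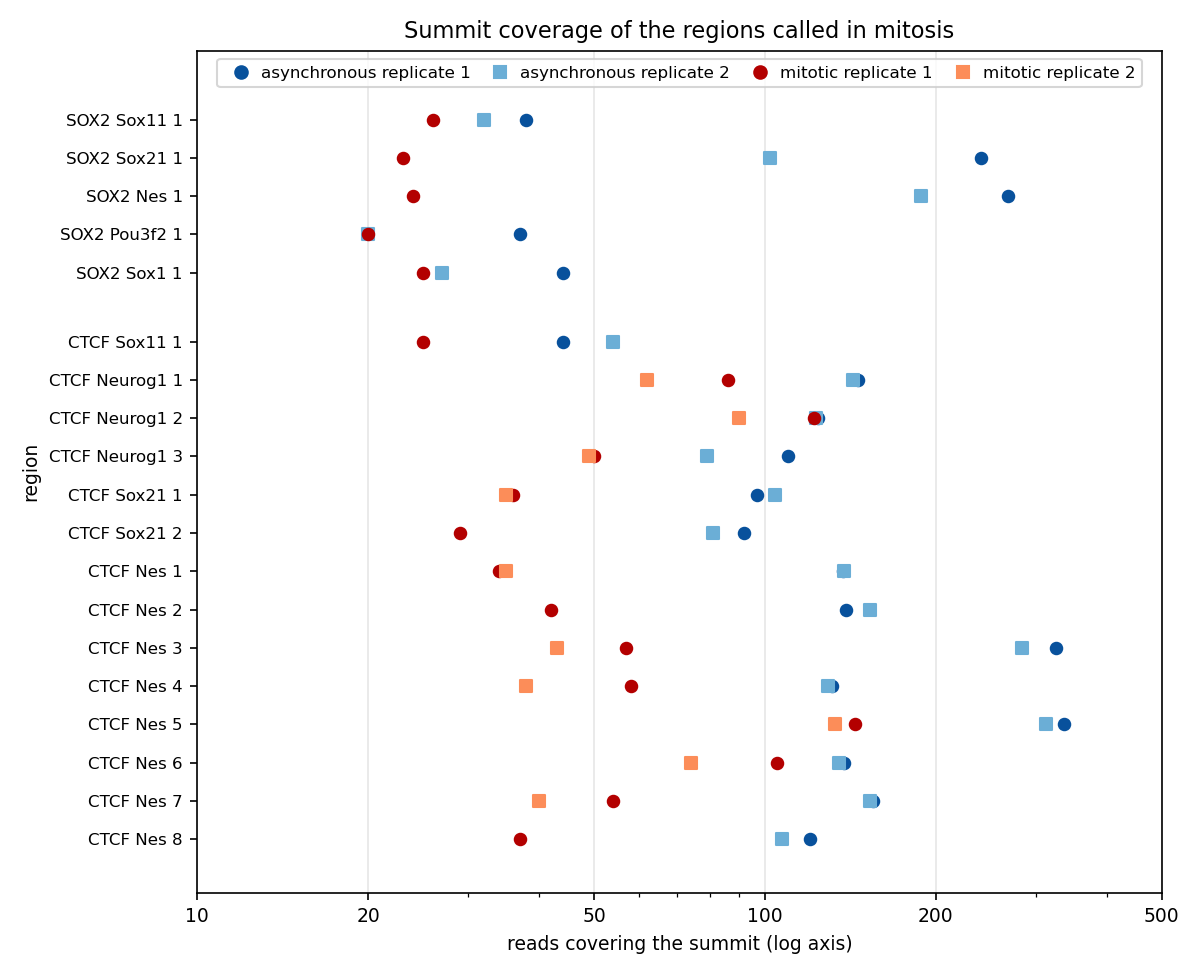
Reads covering the summit (log axis) in each library for the 5 SOX2 and 14 CTCF regions near the 9 genes that were called in mitosis, numbered by position within a gene; circles are replicate 1 and squares replicate 2, blue asynchronous and red or orange mitotic. The mitotic SOX2 values lie between 20 and 26 reads whatever the asynchronous value, while mitotic CTCF values spread from 25 to 144.

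Other strong SOX2 regions were not called in either mitotic library, also at genes such as Sox11 and Sox1 where a weaker region was called. The Pax3 region within the gene (chr1:78119660-78120911, strength 97.8) had 201 and 131 summit reads in asynchronous replicates 1 and 2. A region 12.7 kb downstream of Sox11 (chr12:27320467-27321589, strength 97.8) had 161 and 102. At Otx2 the regions over the innermost start (chr14:48662514-48664091) and 32.8 kb upstream (chr14:48700443-48701867) both reached a strength of 97.4, with 188 and 118 and with 207 and 139 reads. The strongest Pax6 region (chr2:105690760-105692191, strength 92.0) had 182 and 101 reads and lies within the gene. The strongest of Neurog1, 5.68 kb upstream (chr13:56257856-56261160, strength 86.2), had 92 and 46, and the strongest of Sox1, 29.9 kb downstream (chr8:12429448-12432166, strength 83.2), had 155 and 54. Pou3f2 had no region above 66.0 (chr4:22494654-22495440, 52 and 28 reads). Of the 10 regions in the strongest class, 2 were called in mitosis (Nes and Sox21), beside 10.0% of all SOX2 regions in that class called in at least 1 mitotic library. Pax6, Pax3, Neurog1 and Otx2 had no mitotic SOX2 peak at all.

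The 8 SOX2 regions of Neurog1 had a median strength of 81.0, the highest of the 9 genes. They ran from 11.1 to 86.2, with 6 of them at 79.5 or above and the others at 11.1 and 40.9. Otx2, the gene with the most regions, spread from 14.0 to 97.4, and Pou3f2 from 29.5 to 66.0.

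**Figure D4:**
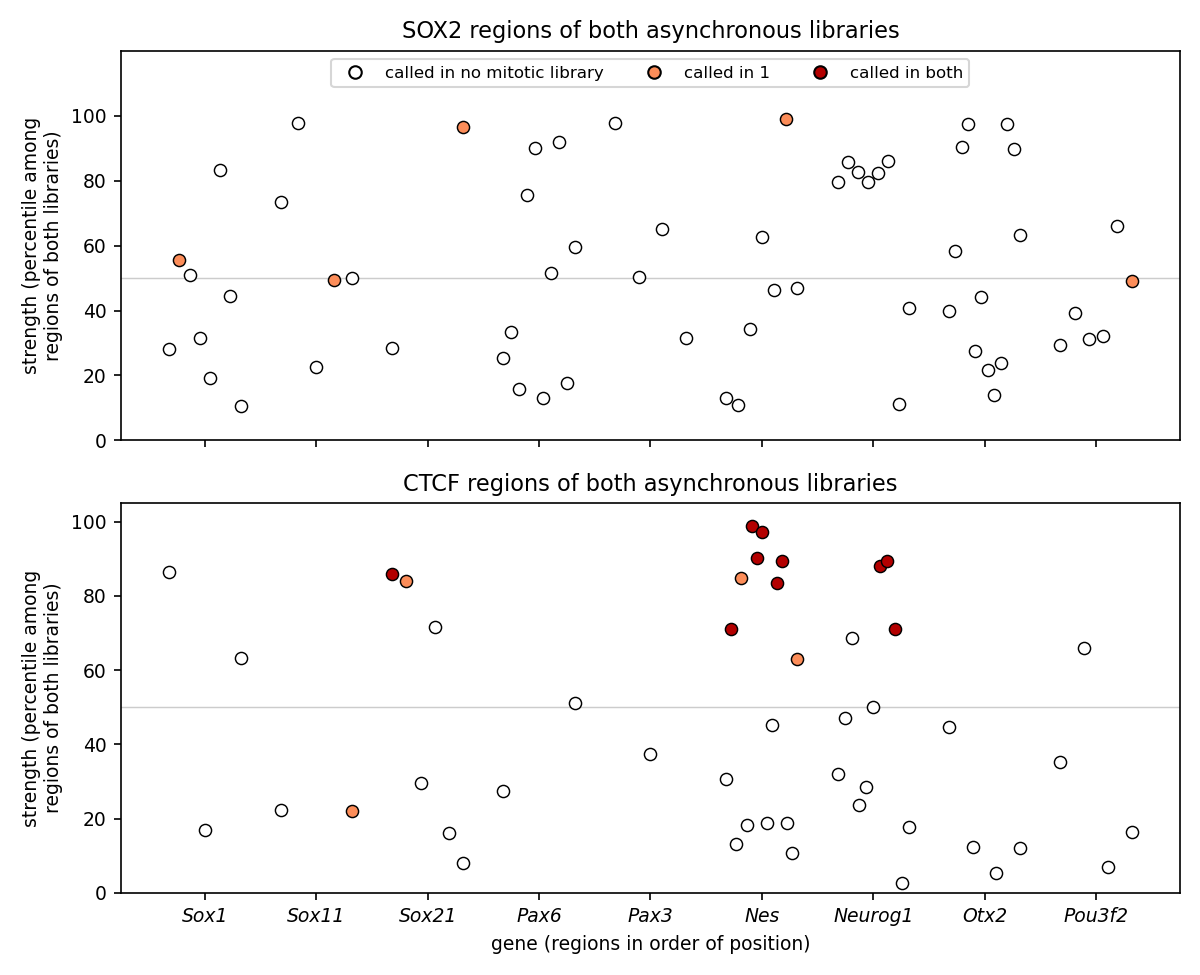
Strength percentile of each SOX2 (upper) and CTCF (lower) region by gene, in order of position; open circles were called in no mitotic library, orange in 1 and dark red in both. CTCF regions called in both mitotic libraries lie at a strength of 71.2 or more, whereas strong SOX2 regions such as those of Otx2 and Pax3 are open circles.

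CTCF regions kept more calls, and the calls repeated. In mitotic replicate 1, 14 of the 48 regions were called (29.2%, Wilson 95% interval 18.2 to 43.2%), beside 33.0% of all 57992 CTCF regions and 30.2% at the same strength. In replicate 2 it was 10 of 48 (20.8%, 11.7 to 34.3%), beside 25.4% of all and 24.0% at the same strength. The same 10 were called in both, beside 24.5% of all regions, 4 in replicate 1 only, beside 9.47% called in 1 library, and 34 (70.8%) in neither, beside 66.0%. These shares are near those of all regions. The mean share over the mitotic libraries was 25 ± 5.89% for CTCF and 4.03 ± 5.70% for SOX2 (SD, n = 2 each). The difference was 21.0 percentage points, each CTCF library lying above each SOX2 library, and p = 0.333 by the two-sided exact permutation test, again the smallest possible.

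Nes and Neurog1 held most of these calls. Of the 10 regions called in both libraries, 6 lay around Nes, 3 around Neurog1 and 1 around Sox21. Of the 4 called in replicate 1 only, 2 lay around Nes, 1 around Sox21 and 1 at Sox11. Without Nes the mean share of CTCF regions called was 15.2% in place of 25%. Over all protein-coding genes, 63.6% had a CTCF region called in both mitotic libraries within 50 kb, as did 3 of the 9 genes, while 3.67% had such a SOX2 region and none of the 9.

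Around Nes, the strongest CTCF region (chr3:87960591-87961774, strength 99.0) lay 9.32 kb upstream and nearest to Crabp2, a retinoic acid binding protein. Its summit coverage was 326 and 284 reads in asynchronous replicates 1 and 2, and 57 and 43 in mitotic replicates 1 and 2, 16.4% of the asynchronous mean. The region over the Nes start (chr3:87969741-87971842, strength 90.2) had 131 and 129 against 58 and 38. Its summits lay upstream of the start in all libraries. The asynchronous peaks reached over the start, but the peaks of both mitotic replicates ended upstream and did not cover it. The region 5.92 kb downstream, nearest to Bcan (chr3:87986373-87988464, strength 97.3), had the highest coverage in every library, with 337 and 313 against 144 and 133. Farther out, 25.3 kb downstream (chr3:88005725-88006696), coverage was 138 and 135 against 105 and 74. At 29.9 kb downstream (chr3:88010383-88011444) it was 155 and 153 against 54 and 40, and at 40.0 kb upstream (chr3:87930079-87931100) 137 and 138 against 34 and 35. Every mitotic value was below both asynchronous values of its region. The pair called in replicate 1 only, at 34.8 kb upstream (chr3:87935092-87936340) and 47.1 kb downstream (chr3:88027536-88029028), had 139 and 153 against 42, and 120 and 107 against 37.

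At Neurog1 the called CTCF regions all lay upstream, at 14.0, 27.0 and 37.6 kb. The nearest (chr13:56266202-56268041, strength 88.1) had 146 and 143 summit reads in asynchronous and 86 and 62 in mitotic libraries. The middle region (chr13:56279214-56281075, strength 89.5) kept the largest part of its summit reads, 85.8% of the asynchronous mean, with 124 and 123 against 122 and 90. It is nearer to Cxcl14, a chemokine gene, than to Neurog1. The farthest (chr13:56289804-56290422, strength 71.2) had 110 and 79 against 50 and 49 and is also nearest to Cxcl14. At Sox21 the region 29.4 kb downstream (chr14:118202932-118203806, strength 86.0) had 97 and 104 against 36 and 35, and that at 25.4 kb downstream (chr14:118207076-118207826) 92 and 81 against 29 in replicate 1 only. Over the 10 regions called in both, mitotic coverage was 16.4 to 85.8% of the asynchronous mean, with a median of 39.8%. A region had to reach the calling threshold to enter, so these percentages leave out any that fell further.

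The mitotic CTCF peaks kept the position of the asynchronous ones closely. In 24 of 24 mitotic calls the summit was within 100 bp of the nearer asynchronous summit, at a median of 13.0 bp and at most 74 bp. For SOX2 it was 1 of 5 calls, with a median of 168 bp. A call already had to share at least 1 bp with the asynchronous region. These gaps were not measured over all called regions, so they cannot be read as particular to the 9 genes. No mitotic peak near the 9 genes lay outside the asynchronous peaks of its factor. The share of all mitotic peaks outside them was not computed, so this too cannot be read as particular to these genes.

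**Figure D5:**
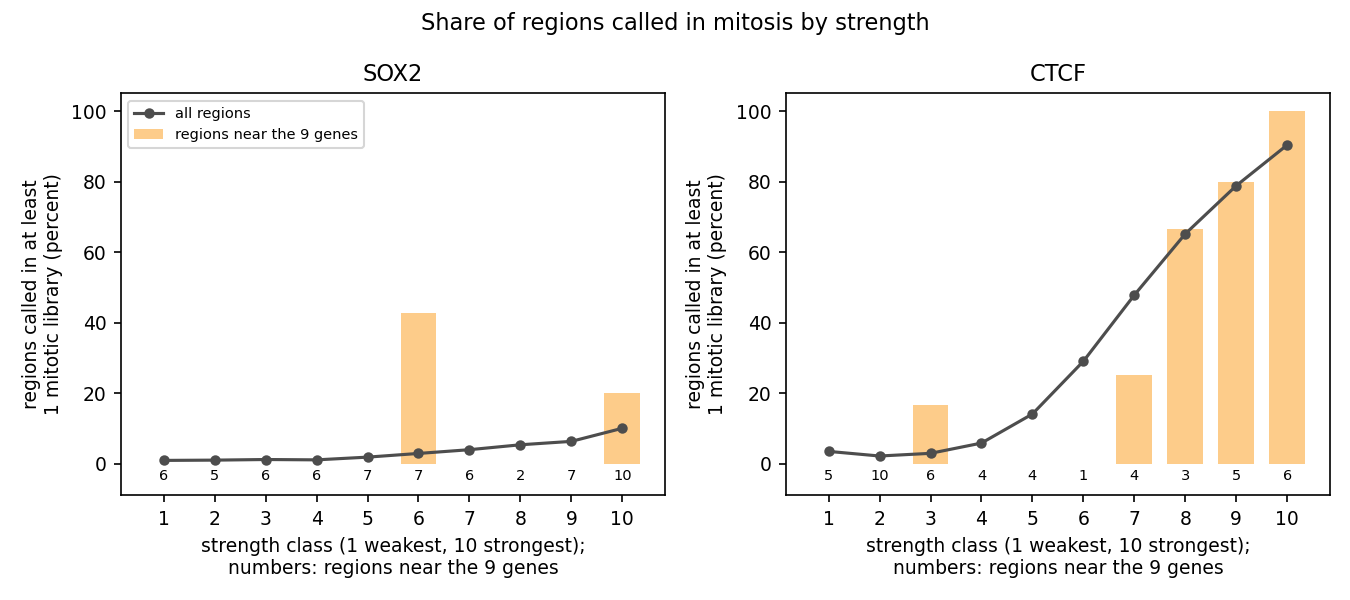
Percent of regions called in at least 1 mitotic library by strength class (10 equal classes of all regions, 10 the strongest); the line gives all regions and the bars the regions near the 9 genes, whose number stands under each class. For CTCF all 6 regions in class 10 were called, beside 90.4% of all regions there, and for SOX2 2 of 10, beside 10.0%.

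Strong CTCF regions were not called at every gene. The strongest CTCF region of Sox1, 3.32 kb upstream (chr8:12391150-12392201, strength 86.4), had 157 and 161 reads in the asynchronous libraries and was called in neither mitotic library, although 63.1% of all CTCF regions of its strength class were called in both. It was the strongest uncalled CTCF region near the 9 genes. At Sox1 the mitotic CTCF peak of replicate 1 lay within the gene, 366 bp after the start with 28 reads, over a peak of asynchronous replicate 1 alone with 27 reads. The strongest regions of Pou3f2 (chr4:22476877-22477822, strength 65.8, 92 and 86 reads), Pax6 (chr2:105687432-105687999, strength 51.3, 61 and 74 reads), Otx2 (chr14:48620321-48620712, strength 44.7, 55 and 45 reads), Pax3 (chr1:78177734-78178239, strength 37.4, 40 and 39 reads) and Sox11 (chr12:27335771-27336045, strength 22.3, 30 and 30 reads) were not called. In the strength classes of Otx2, Pax3 and Sox11, few CTCF regions are called anywhere. Up to class 5 it is 14.1% or fewer in at least 1 mitotic library and 5.69% or fewer in both.

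By gene, 4 of the 9 had a mitotic peak of both factors (Sox1, Sox11, Sox21 and Nes), 1 of SOX2 alone (Pou3f2), 1 of CTCF alone (Neurog1), and 3 had none (Pax6, Pax3 and Otx2). Of all protein-coding genes, 16.4% had a mitotic peak of both factors within 50 kb, 1.61% of SOX2 alone, 56.0% of CTCF alone and 26.0% of neither. Otx2 and Pax6 are thus the genes with the most SOX2 regions and no mitotic peak of either factor.

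SOX2 and CTCF regions overlapped at 13 places near the genes. This was 21.0% of the SOX2 regions, beside 20.3% of all SOX2 regions, and 27.1% of the CTCF regions, beside 18.3% of all. The overlaps lay at Neurog1 (5), Nes (2), Otx2 (2), Pou3f2 (2), Sox11 (1) and Pax6 (1). They were often unequal: at Otx2 32.8 kb upstream a SOX2 region of strength 97.4 met a CTCF region of strength 5.43 with summits 2 bp apart, and 9.32 kb upstream of Nes a SOX2 region of strength 62.6 met the CTCF region of strength 99.0, 408 bp apart. In 6 of the 13 overlaps the summits were within 100 bp, 9.68% of the 62 SOX2 regions, beside 10.3% of all.

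Both factors were called in mitosis at 1 of the 13 overlaps, beside 4.27% of all overlapping SOX2 regions, and it was the SOX2 region over the Sox11 start. The CTCF region began 226 bp upstream of the start and did not cover it (chr12:27342944-27343538), with 44 and 54 summit reads in asynchronous and 25 in mitotic replicate 1, at a strength of 22.1. The deposited CTCF folds were 2.46, 5.44 and 3.01. CTCF summits lay 359 and 388 bp upstream of the start in the asynchronous libraries and 385 bp in mitotic replicate 1. SOX2 summits lay 733 and 448 bp upstream in asynchronous libraries and 281 bp in mitotic replicate 1. Of the promoter windows of all RefSeq starts, 2.1% were under a mitotic replicate 1 SOX2 peak and 5.22% under such a CTCF peak. In mitotic replicate 2 neither factor had a peak over any of the 12 promoter entries, beside 0.310% (SOX2) and 3.53% (CTCF) of all.

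Starts were widely covered in asynchronous cells. SOX2 peaks of both asynchronous libraries covered a promoter entry of 7 of the 8 genes with an entry, and 21.3% of all entries. Sox21 was the exception, with a peak in replicate 1 alone, 34 reads at its summit. CTCF peaks of both libraries covered the starts of Nes, Pou3f2, Neurog1 and Sox21, beside 12.7% of all entries. At Neurog1 the SOX2 summits lay 59 and 31 bp upstream of the start, with 79 and 59 reads, on either side of the CATTGTT printed above, whose bases lie 44 to 38 bp upstream. The CTCF cores of that promoter lie 66 to 60 bp (AGGTGGC) and 54 to 48 bp (AGGGGGC) upstream, and the CTCF summits lay 143 bp upstream and 107 bp downstream, with 38 and 35 reads. At Sox1 the SOX2 summits were 174 and 183 bp upstream, away from the octamer at 19 to 25 bp after the start, with 61 and 33 reads. At Pou3f2 they were 122 and 141 bp upstream, with 26 and 20 reads, and its AGGGGGC lies 149 to 143 bp upstream.

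Other gene lists place these values. Near 55 other neural regulators, 350 SOX2 regions were called at 5.71% and 1.71% in mitotic replicates 1 and 2, and 6 of them in both, 1 each at Dll1, Insm1, Msi1, Sox5, Sox9 and Zic5. Near 30 pluripotency regulators, 335 SOX2 regions gave 7.16% and 1.19%, with 4 in both (Lin28a, Phc1, Pou5f1 and Trim28). Near 25 mesoderm and endoderm regulators, 126 SOX2 regions gave 3.17% and 0%. The 9 genes had 6.89 SOX2 regions per gene, beside 6.36, 11.2 and 5.04 in these lists. A region near several genes of a list counted once here, which lowers the value of lists with neighbouring genes, and the 9 genes share none. With the regions of each gene counted separately, the median was 7 for the 9 genes, beside 6, 12 and 5. CTCF regions were called at 34.8% and 27.8% near the other neural regulators, at 30.2% and 23.3% near the pluripotency regulators and at 40.7% and 35.9% near the mesoderm and endoderm regulators, with the most regions called in both at Pax7 (5), Gdf3 and Id3 (6 each), and Hnf4a and Tbx5 (5 each). No test of these differences between lists was made.

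The protein-coding genes over 1 Mb away whose peak numbers were most like the mean of the 9 genes were Zfp961, Sestd1, Fgd6, Slx4ip and Cacng2. Likeness was the Euclidean distance over log2(peaks + 1) in the 8 lists. It was 0.550 to 0.627 for these genes, beside a median of 2.58 over the others, and the 9 genes themselves lay 1.4 to 3.66 from their own mean.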

How the data were processed

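The authors deposited 1 narrowPeak list for each of 8 SOX2 and CTCF ChIP-seq libraries, in mm10 coordinates. The submitters' processing notes name MACS2 2.1.1.20160309, BWA 0.7.17, CASAVA 1.4 and SAMtools. The sources used here give no options, filters or controls. In the deposited lists the fold is a ratio of coverage over local background, the −log10 p-value and −log10 q-value are those of the peak summit, and the score, derived from the q-value by the peak caller, was not used. The 9 genes and the other gene lists were chosen with earlier results of these data known.

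Lists called separately give no coverage for uncalled regions, so calls were compared. Overlapping peaks present in both asynchronous lists were merged into regions, and a region counted as called if at least 1 bp was shared with a mitotic peak. Shares at the same strength average, over the 10 strength classes of the members' regions, the share of all regions called. Summit reads behind the depth values were solved in up to 2000 peaks per list. Wilson intervals (95%) and limits for a count of 0 (3 counts) cover counting error only. Libraries were compared with two-sided exact permutation tests. The overlap code was checked against bedtools 2.31.1 and tested on simulated data. Python 3.11.15, pandas 2.3.3 and scipy 1.17.1 were used, with gene positions from RefSeq (GRCm38.p6, the assembly of mm10).

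All 9 genes were named. Regions named were the strongest per gene and factor, those called in both mitotic libraries, SOX2 regions called in 1, and mitotic peaks outside all asynchronous peaks. The CTCF regions called in 1 library, the strong uncalled SOX2 region upstream of Otx2, the unequal overlaps and the summit positions at starts were chosen after their values were seen. Genes of other lists were named from up to 8 per factor with the most regions called in both, and similar genes were the 5 nearest by distance. Alternatives were peaks with a −log10 q or a fold of at least 5, other overlap rules, regions of either library, distances of 10 and 100 kb, nearest genes only, leaving out each library or gene, and a replicate block.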

Additional observations from a re-analysis of the deposited data

How the results depend on the processing

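The number of SOX2 peaks in mitosis stayed far below that of asynchronous cells under every alternative run, at 0 to 4.65% of it beside 2.33% as reported, and CTCF at 14.1 to 31.4% beside 22.8%. The share of SOX2 regions called ranged from 0 to 8.06%, and CTCF minus SOX2 from 9.16 to 33.3 percentage points, positive throughout. No direction reversed. The SOX2 share was 0 with a −log10 q or a fold of at least 5 and without mitotic replicate 1, and 8.06% without mitotic replicate 2. Its SD of 5.70 points is wider than the share itself. With 2 mitotic libraries, leaving out 1 always gives a value within the SD, so that does not show a stable share. Region numbers of single genes were less stable: 74 of the recomputed values differed from those reported by more than 1.5 times and 106 did not. With a fold of at least 5, 25 SOX2 and 21 CTCF regions were left, no mitotic SOX2 peak near the genes, 33.3% of CTCF regions called, and 4.0% of SOX2 regions overlapping CTCF. Requiring summits within 100 bp, also between the asynchronous libraries, left 45 SOX2 regions, of which 8.89% overlapped CTCF. Regions of either asynchronous library numbered 129 for SOX2 and 73 for CTCF, with 17.1% of the latter called. Within 10 kb there were 40 SOX2 and 18 CTCF regions. Where a member had to be the nearest protein-coding gene, 29 CTCF regions remained and 13.8% were called. Leaving out 1 library or gene gave 50 (without Otx2) to 123 SOX2 regions (without asynchronous replicate 2, so peaks of 1 library), and 15.2% (without Nes) to 29.2% of CTCF regions called (without mitotic replicate 2). Each alternative takes in other peaks, regions or libraries by construction, and beyond that the cause was not tested.

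With a replicate block, comparing libraries of the same number, mitotic peaks were 2.03% (SOX2) and 22.7% (CTCF) of the asynchronous number, shares called were 2.03% and 20.3%, and their difference was 18.3 points. Over protein-coding genes, replicate differences of same-numbered libraries had a correlation of 0.0188 for SOX2 and -0.0149 for CTCF. Few genes had a mitotic SOX2 peak within 50 kb (16.4% with both factors, 1.61% with SOX2 alone). A SOX2 value near 0 therefore cannot show whether such libraries deviate together. The SOX2 background went by number. It was 2.48 (asynchronous) and 2.62 (mitotic) reads per 100 bp in replicate 1, and 1.61 and 1.64 in replicate 2. Whether same-numbered libraries share a batch was not tested. No block was possible for the numbers of regions and the overlap of factors, where no mitotic library enters. A peak list shows no value for a region that was not called, so a loss of coverage short of the threshold cannot be read from it.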
